A study of Mus musculus with 16 samples.

Results

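The matrix metalloproteinases and their tissue inhibitors were examined in whole mouse aorta through 10 genes: Mmp2, Mmp3, Mmp9, Mmp12, Mmp13, Mmp14, Mmp19, Timp1, Timp2 and Timp3. Their probe sets were those to which the platform annotation gives exactly 1 of these symbols, which made 23 of the 45101 probe sets on the array. All 10 genes had at least 1 probe set above the filter on dim signals, and 21 of the 23 probe sets lay above it. The 10 genes were tested among 11042 genes, each through its brightest probe set. The other 13 probe sets are given where they bear on a result.

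The study measured aortas of ApoE-/- mice, which lack apolipoprotein E and develop atherosclerosis, on 16 Affymetrix arrays in 4 groups of 4. The titles call the arrays of a group biological replicates, and each was taken here as 1 mouse. All 16 mice were 18 weeks old and had eaten a high fat diet for 10 weeks from an age of 8 weeks. The non-diabetic group received neither STZ nor RBX, and the non-diabetic RBX group ate ruboxistaurin (RBX, LY333531), which inhibits protein kinase C beta, in that diet. The diabetic group received STZ (streptozotocin, which destroys the insulin-producing beta cells) at 6 weeks of age, and the diabetic RBX group received both STZ and RBX. ApoE deficiency and the high fat diet were thus shared by every group, no mouse of another genotype or diet was compared, and RBX reached the whole animal. The 12 smooth muscle and 12 endothelial markers examined, 11 of 12 adventitial fibroblast markers and 18 of 18 macrophage markers lay above the filter, so the layers of an atherosclerotic aorta were all represented in the RNA. In whole tissue, fewer cells of a type and less RNA per cell cannot be told apart.

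Matrix metalloproteinases are zinc-dependent proteases, mostly secreted as inactive proenzymes, that cut collagens, elastin, proteoglycans and other proteins of the extracellular matrix. The TIMPs bind their active sites and block them. In atherosclerosis, macrophages and smooth muscle cells make these enzymes, and the balance of protease and inhibitor is known for its part in the remodelling of the wall and the thinning of the fibrous cap over a plaque.

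The 4 arrays of the non-diabetic RBX group lay above the other 12 in the cre hybridisation control, which touches every comparison that uses them. Its signal was 308745 to 575618 on these 4 arrays and 156465 to 294507 on the others, although all 16 arrays had been scaled to a trimmed mean of 1500.01. The Actb control is read at its 3' and its 5' end, and the ratio of these ends rises with RNA breakdown and short labelled products. On the log2 scale it averaged 2.08 in the non-diabetic RBX group, beside 1.04 in the non-diabetic, 1.34 in the diabetic and 1.71 in the diabetic RBX group. The Actb ranges of both RBX groups overlapped, at 1.67 to 2.51 in non-diabetic and 1.47 to 1.89 in diabetic mice. The non-diabetic group, at 0.85 to 1.32, lay below every non-diabetic RBX array. Non-diabetic RBX mouse 4 had the highest cre signal and the highest Actb ratio of the 16 arrays, 575618 and 2.51. Its highest Spearman correlation with another array, 0.867, was the lowest of the 16.

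Several of these proteases are neighbours in the genome. On chromosome 9 the RefSeq gene order of the mouse (GRCm38.p6) is Mmp13, Mmp12, Mmp1b, Mmp3, Mmp1a, Mmp10, Mmp8, Mmp27, Mmp20 and Mmp7. The proximal promoters of Mmp13, Mmp12 and Mmp3 are shown because these genes of 1 cluster each have an annotated start with the same short motif close by. With RBX in non-diabetic mice Mmp12 rose and Mmp13 fell, while the difference of Mmp3 did not pass. The capitals mark TGANTCA, the element bound by AP-1 (Fos and Jun) dimers, which reads the same on both strands. Each run lies on the + strand, 5′ to 3′, and covers chr9:7272394-7272513 for Mmp13, chr9:7347254-7347373 for the second annotated start of Mmp12, and chr9:7445702-7445821 for Mmp3.
Mmp13: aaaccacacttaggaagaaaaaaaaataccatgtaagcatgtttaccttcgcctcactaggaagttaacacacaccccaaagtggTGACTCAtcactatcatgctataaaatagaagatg
Mmp12: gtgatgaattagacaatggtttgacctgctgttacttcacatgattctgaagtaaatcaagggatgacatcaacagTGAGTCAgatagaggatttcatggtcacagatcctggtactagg
Mmp3: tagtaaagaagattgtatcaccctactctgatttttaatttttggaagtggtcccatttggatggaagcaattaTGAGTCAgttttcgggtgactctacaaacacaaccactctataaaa
The motif began 35 bases before the start of Mmp13, 44 before that of Mmp12 and 46 before that of Mmp3. Promoter windows of 300 bases, from 250 before to 50 after a start, were found for 7 of the 10 genes, with 8 windows in all because Mmp12 has a pair of starts. TGANTCA was in 3 of these 8 windows, and in 7.81% of the 32851 mouse windows of that length. The windows of Mmp14, Timp1, Timp2, Timp3 and the first start of Mmp12 did not hold these letters. A match is a description of the sequence and was not set against binding data.

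**Figure D1:**
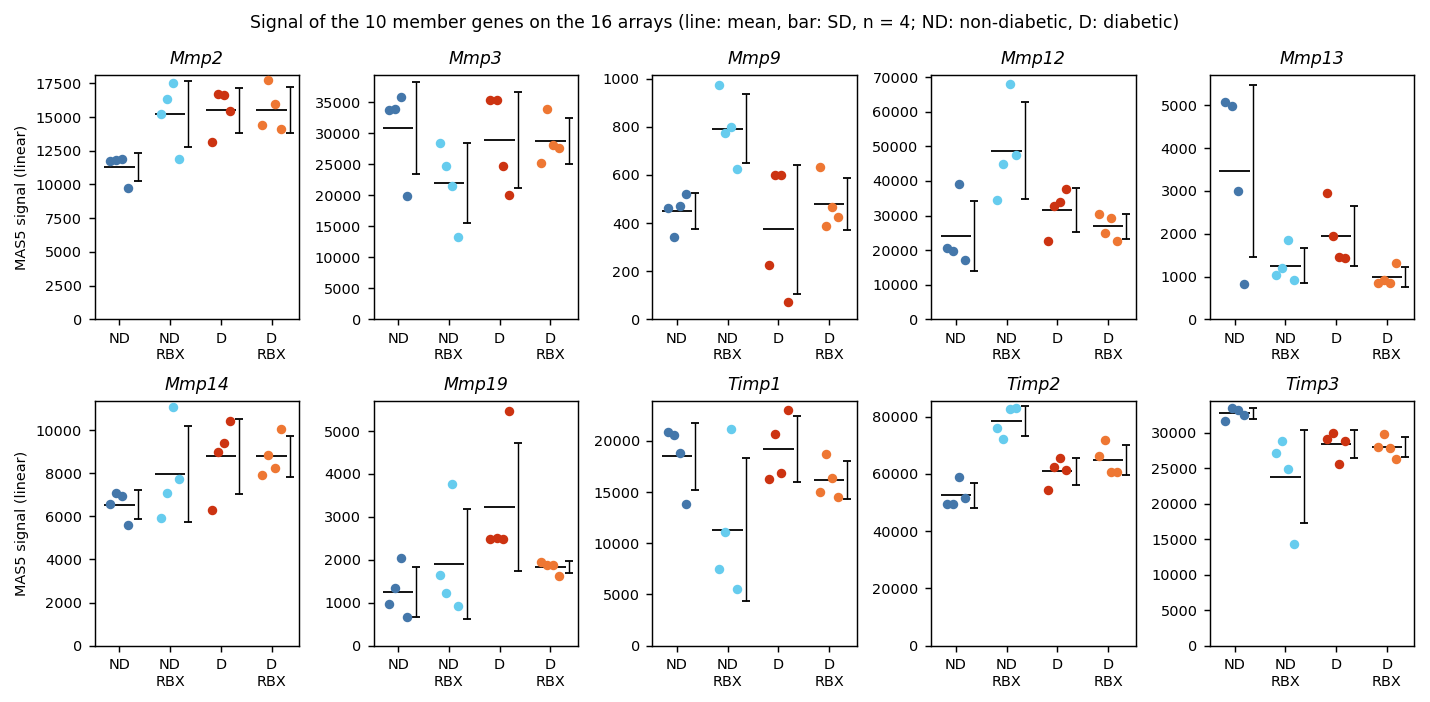
MAS5 signal (linear scale, from 0) of the brightest probe set of each of the 10 genes on the 16 arrays, by group. Points are mice, lines are group means and bars are SD (n = 4). The 4 non-diabetic RBX points lie above all non-diabetic points for Mmp9 and Timp2 and below all of them for Timp3, and Mmp12 reaches 68064 in that group.

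Diabetes without RBX, RBX in each diabetes state, diabetes with RBX, and their interaction were compared with limma, and p-values were adjusted by Benjamini-Hochberg over the 11042 genes. Among the 10 genes, 6 passed for RBX in non-diabetic mice, where Mmp12, Timp2 and Mmp2 rose and Mmp13, Timp1 and Timp3 fell. Over all genes 31.6% passed in that comparison, so a share of 6 in 10 is read against a wide shift of the whole array: 16.5% of all genes rose and 15.1% fell, against 3 and 3 of the 10. None of the 10 passed for diabetes without RBX, where 0.652% of all genes did, or for RBX in diabetic mice, where 0.0453% did. At an unadjusted p under 0.05 these counts were 4 of 10 (1682 of 11042 over all genes) and 1 of 10 (1014 of 11042). Mmp12 alone passed for diabetes with RBX, where 7.1% of all genes did, and Mmp12 and Timp2 passed for the interaction, where 11.5% did. The median log2 fold change of the 10 genes was 0.33 for RBX in non-diabetic mice and 0.14 for diabetes without RBX, beside 0.032 and 0.013 over all genes.

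**Figure D2:**
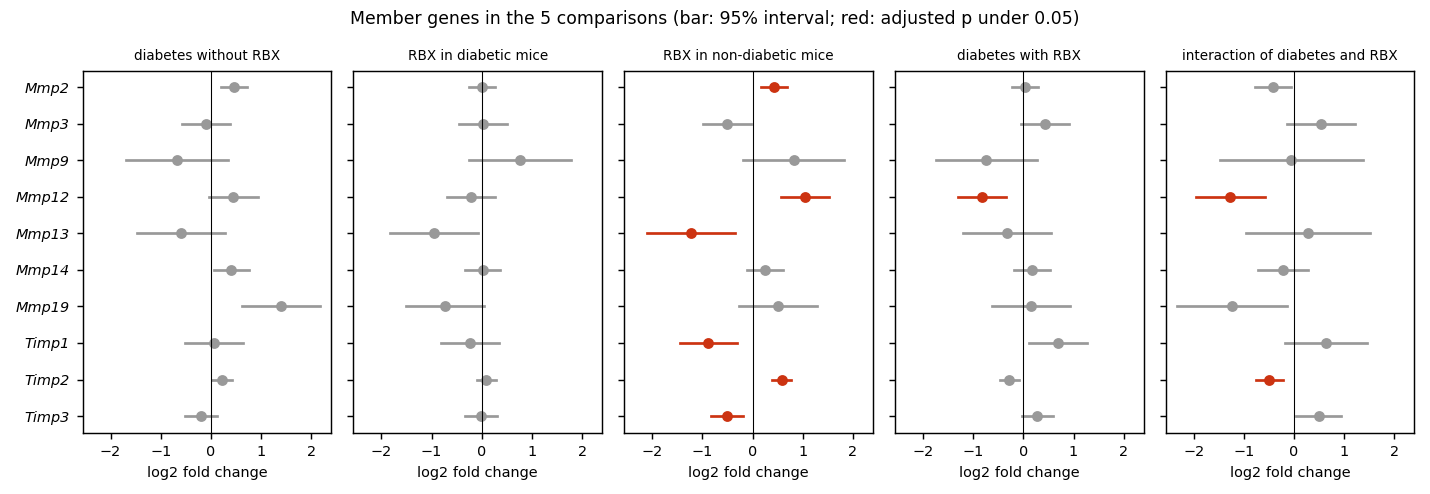
Log2 fold change of the 10 genes in the 5 comparisons, with 95% intervals from limma, where red marks an adjusted p under 0.05. The red points are 6 genes for RBX in non-diabetic mice, Mmp12 for diabetes with RBX, and Mmp12 and Timp2 for the interaction, which subtracts the RBX effect of the non-diabetic from that of the diabetic mice.

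Mmp13, the main interstitial collagenase of the mouse, had its lowest group means in the mice given RBX. Non-diabetic mice gave signals of 5083, 4987, 2988 and 837 without RBX, against 1042, 1199, 1848 and 919 when RBX was fed. Among diabetic mice the signals were 2939.9, 1953, 1454 and 1438 without RBX, against 845, 918, 842 and 1326 when it was fed. The fourth non-diabetic mouse, at 837, lay below all non-diabetic RBX mice, while every diabetic RBX mouse lay below every diabetic one. In non-diabetic mice Mmp13 fell by 1.23 on the log2 scale with RBX (SE 0.42, limma adjusted p = 0.0326), from 3474 ± 2006 to 1252 ± 414 (mean ± SD, n = 4). In diabetic mice the log2 difference was -0.95 (SE 0.42, unadjusted p = 0.0362, limma adjusted p = 0.501), from 1946 ± 704 to 983 ± 231, and the interaction was 0.28 (SE 0.59, limma adjusted p = 0.801). Diabetes gave -0.60 without RBX and -0.32 with it, with limma adjusted p = 0.537 and 0.677. The call in non-diabetic mice was lost when 1 mouse was left out in 6 cases: limma adjusted p was 0.117, 0.116 and 0.0597 without non-diabetic mouse 1, 2 or 3, and 0.0655, 0.0564 and 0.0821 without non-diabetic RBX mouse 1, 2 or 4. Over those 6 the log2 difference was -1.22 to -0.94. It was also lost with the non-diabetic groups fitted alone (limma adjusted p = 0.0838) and without an intensity trend (limma adjusted p = 0.0525).

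Mmp3, stromelysin-1, cuts proteoglycans, laminin and fibronectin and activates other proenzymes of the family. It measured 33681, 33872, 35922 and 19863 in the untreated non-diabetic group, and 28429, 24725, 21469 and 13351 with RBX. The diabetic group gave 35381, 35358, 24681 and 20026, and the diabetic RBX group 25267, 33941, 28094 and 27571. The groups overlapped in every comparison, and the spread within the 3 groups other than diabetic RBX was wide. The non-diabetic RBX group had the lowest mean, 21993.5 ± 6425, beside 30834 ± 7384 in non-diabetic mice, a log2 difference of -0.50 (SE 0.23) that did not pass (limma adjusted p = 0.0989). It did pass without non-diabetic mouse 4, the lowest of its group (-0.70, limma adjusted p = 0.0279), and without non-diabetic RBX mouse 1 (-0.65, limma adjusted p = 0.0454). The other group means, 28861 ± 7751 in diabetic and 28718 ± 3692 in diabetic RBX mice, gave a log2 difference of 0.026 (95% interval -0.45 to 0.50). Within the cluster, Mmp3 and Mmp13 had a Pearson r of 0.62 within groups (16 arrays, after subtracting group means). Mmp12, which lies between them, had r = -0.090 with Mmp3 and 0.093 with Mmp13. These correlations describe arrays that share scaling and RNA quality, and have no p.

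Mmp2, gelatinase A, degrades type IV collagen and gelatin and is activated at the cell surface by Mmp14 together with Timp2. The non-diabetic mice had the lowest Mmp2, with signals of 11705, 11835, 11894 and 9702. With RBX the values were 15217, 16322, 17499.5 and 11863, with diabetes 13112, 16679.7, 16667 and 15478, and with both 14377, 17747.5, 15937 and 14077. Every diabetic mouse, with or without RBX, lay above every untreated non-diabetic one, while non-diabetic RBX mouse 4 lay within the non-diabetic range. The share of all genes without overlap between diabetic RBX and untreated non-diabetic mice was not counted. Group means were 11284 ± 1058, 15225 ± 2427, 15484 ± 1679 and 15534 ± 1686 in the order given. Mmp2 rose with RBX in non-diabetic mice by 0.42 on the log2 scale (SE 0.12, limma adjusted p = 0.0133), and the call was lost without non-diabetic mouse 4 (0.35, limma adjusted p = 0.0540). For diabetes without RBX the log2 difference of 0.45 (SE 0.12) was as large and missed the threshold (limma adjusted p = 0.0759). This was 1 of 3 genes of the 10 whose groups did not overlap there, beside 9.45% of all genes. It passed without diabetic mouse 1 (0.53, limma adjusted p = 0.0386), without non-diabetic RBX mouse 4 (0.45, limma adjusted p = 0.0321) and, in a fit chosen after the data were seen, without all 4 non-diabetic RBX arrays (0.45, limma adjusted p = 0.0253). RBX in diabetic mice gave 0.0052 (95% interval -0.25 to 0.26) and diabetes with RBX 0.038 (95% interval -0.22 to 0.29). The interaction was -0.42 (SE 0.17, limma adjusted p = 0.119) and passed only without non-diabetic RBX mouse 4 among the 16 arrays left out in turn (-0.53, limma adjusted p = 0.0338). The second probe set of Mmp2 gave 0.54 for RBX in non-diabetic mice (SE 0.11) and 0.44 for diabetes without RBX (SE 0.11), and it followed the first with r = 0.93 over the 16 arrays.

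Mmp9, gelatinase B, is stored by neutrophils and made by activated macrophages, and was dim and variable here. Its brighter probe set read 463, 343, 471 and 519 in non-diabetic mice and 972.5, 773, 798 and 624 with RBX, so these groups did not overlap. The diabetic group read 224, 599.5, 599 and 74.1, and the diabetic RBX group 632, 389, 467 and 425. The log2 difference for RBX in non-diabetic mice was 0.82 (SE 0.48, limma adjusted p = 0.207) in the fit that pools the spread of all 4 groups. Fitted on the non-diabetic groups alone it was the same size and passed (SE 0.25, limma adjusted p = 0.0340), while Mmp13, Timp1 and Timp3 did not pass in that fit (limma adjusted p = 0.0838, 0.0719 and 0.0669). The second Mmp9 probe set lay below the filter, at 95.9 ± 48.9 in non-diabetic and 402 ± 255 in non-diabetic RBX mice (2.01, SE 0.70, limma adjusted p = 0.0629 over all probe sets). Signals of 3 neutrophil genes above the filter, S100a8, S100a9 and Csf3r, were higher in the same comparison (summed signal 2551 to 8320 in non-diabetic and 8243 to 10719 in non-diabetic RBX mice), while 7 other neutrophil markers, among them Ly6g, Elane and Mpo, were not among the genes tested. Their part in the Mmp9 values was not tested.

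Mmp12, the macrophage elastase, cuts elastin and is made largely by macrophages. Its signal was highest in the non-diabetic RBX mice, at 34477, 44773, 68064 and 47606. Untreated, the non-diabetic group gave 20496, 19876, 39250.4 and 17106 and the diabetic group 22539, 32665, 33785 and 37665. With RBX the diabetic group gave 30534, 24845, 29443 and 22752. Non-diabetic mouse 3 lay inside the non-diabetic RBX range, and the diabetic RBX mice all lay below the non-diabetic RBX mice. Mmp12 rose with RBX in non-diabetic mice by 1.05 on the log2 scale (SE 0.23, limma adjusted p = 0.00227), from 24182 ± 10153 to 48730.0 ± 14070.0. In diabetic mice, where the mean was 31664 ± 6449 without and 26893 ± 3701 with RBX, the log2 difference was -0.22 (SE 0.23, limma adjusted p = 0.810). The difference of these effects, the interaction, was -1.27 (SE 0.32, limma adjusted p = 0.0176). Diabetes with RBX lowered Mmp12 by 0.82 on the log2 scale (log2 fold change -0.82, SE 0.23, limma adjusted p = 0.0360), whereas diabetes without RBX gave 0.44 (SE 0.23, limma adjusted p = 0.369). Mmp12 and Timp2 were the 2 genes of the 10 whose groups did not overlap for diabetes with RBX, both lower, beside 12.5% of all genes in either direction. The call for diabetes with RBX was lost in 7 of the 16 fits that left out 1 array: limma adjusted p was 0.0533, 0.0862 and 0.0712 without non-diabetic RBX mouse 2, 3 or 4, and 0.0599, 0.0847, 0.0657 and 0.0845 without diabetic RBX mouse 1, 2, 3 or 4. It was also lost without an intensity trend (limma adjusted p = 0.0686). The calls for RBX in non-diabetic mice and for the interaction were kept in all 16.

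Markers of several cell types were higher in the same comparison as Mmp12. Of 18 macrophage genes tested, 12 rose with RBX in non-diabetic mice and 0 fell, with a median log2 fold change of 0.68 beside 0.032 over all genes. Cd68, a lysosomal glycoprotein of macrophages, gave 0.84, and Csf1r, their growth factor receptor, 0.73. Without RBX their summed signal ranged from 337272 to 504920 in the non-diabetic and from 400487 to 634200 in the diabetic group. With RBX it ranged from 443879 to 784734 and from 470207 to 514840. Diabetes without RBX gave a median of 0.46 over these 18 genes with 0 past the threshold, and the interaction -0.71 with 7 lower. Of 12 endothelial markers, 10 rose with RBX in non-diabetic mice (median 0.72), from a summed signal of 50359 to 58545 to one of 78208 to 110060.0, and 6 were lower for the interaction (median -0.68). Of 11 adventitial fibroblast markers 6 rose (median 0.50), with sums of 386506 to 523956 and 475167 to 674865. The part of these cell types in the Mmp12 differences was not tested.

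Mmp14, the membrane-anchored collagenase MT1-MMP, activates proMmp2 at the cell surface. It read 6565, 7080.1, 6927 and 5618 in non-diabetic mice and 5905, 7099, 11088 and 7730.2 with RBX. The diabetic group gave 6312, 8998, 9414 and 10408, and with RBX this group gave 7933, 8866, 8247 and 10072. Each diabetic RBX mouse and 3 of 4 diabetic mice lay above every untreated non-diabetic mouse. The share of all genes without overlap between diabetic RBX and untreated non-diabetic mice was not counted. The log2 difference for diabetes without RBX was 0.41 (SE 0.17, unadjusted p = 0.0267, limma adjusted p = 0.252), from 6547 ± 656 to 8783 ± 1750.2, and none of the 5 comparisons passed. The other 2 Mmp14 probe sets gave 0.48 and 0.30 for diabetes without RBX.

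Mmp19, a secreted protease of basement membrane proteins, had its highest signals in the diabetic mice. They read 2479, 2517, 2473.5 and 5461, beside 960.2, 1349.8, 2032 and 669.8 in non-diabetic mice. With RBX the values were 1655, 1236, 3768 and 932 in non-diabetic and 1939, 1874, 1886 and 1622 in diabetic mice. The diabetic mice lay above both the non-diabetic and the diabetic RBX mice with no overlap, and 3 of the 4 diabetic values lay close together. For diabetes without RBX the log2 difference was 1.39 (SE 0.37, limma adjusted p = 0.0755), from 1253 ± 589 to 3232.5 ± 1486. It passed without non-diabetic mouse 3 (1.67, limma adjusted p = 0.0259), without non-diabetic RBX mouse 3 or 4 (limma adjusted p = 0.0332 and 0.0436) and without the non-diabetic RBX arrays (limma adjusted p = 0.0172). RBX in diabetic mice gave -0.73 (SE 0.37, limma adjusted p = 0.557), and Mmp13 and Mmp19 were the 2 genes of the 10 whose groups did not overlap there, both lower, beside 6.88% of all genes. The second, dimmer Mmp19 probe set gave 0.94 for diabetes without RBX (SE 0.45) and -0.70 for RBX in diabetic mice (SE 0.45).

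Timp1, an inhibitor induced in injury and fibrosis that binds most secreted members of the family, varied most among the non-diabetic RBX mice, at 7504, 11148, 21170.2 and 5506. Without RBX the non-diabetic mice gave 20865, 20578, 18824 and 13802. In the diabetic group Timp1 read 16316, 20699, 16851 and 22987, and in the diabetic RBX group 14998, 18753.5, 16383.5 and 14551.5. The third non-diabetic RBX mouse exceeded every non-diabetic mouse, and the other 3 lay below them all. Timp1 fell with RBX in non-diabetic mice by 0.88 on the log2 scale (SE 0.27, limma adjusted p = 0.0206), from 18517 ± 3270.4 to 11332 ± 6962. The call was lost without non-diabetic mouse 1 or 2 (limma adjusted p = 0.0570 and 0.0549) and without non-diabetic RBX mouse 1 or 4 (-0.74 and -0.60, limma adjusted p = 0.0602 and 0.0767). It was also lost with the non-diabetic groups fitted alone (limma adjusted p = 0.0719). Diabetes with RBX gave 0.70 (SE 0.27, limma adjusted p = 0.130), and without non-diabetic RBX mouse 3 it gave 1.06 (limma adjusted p = 0.00415) and the interaction 1.002 (limma adjusted p = 0.0232). With all mice the interaction was 0.64 (SE 0.39, limma adjusted p = 0.300). Diabetes without RBX gave 0.057 (95% interval -0.52 to 0.63).

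Timp2, which inhibits Mmp2 and also helps Mmp14 to activate it, is read by 6 probe sets that did not move together. The brightest, used for the gene, read 49661, 49604, 59039.8 and 51586 in non-diabetic mice and 76175, 72212, 82632 and 82998 with RBX, without overlap. It read 54442, 62575, 65430.3 and 61407 in diabetic and 66272, 71741, 60684 and 60836 in diabetic RBX mice. On this probe set Timp2 rose with RBX in non-diabetic mice by 0.58 on the log2 scale (SE 0.091, limma adjusted p = 0.000144), from 52473 ± 4474 to 78504 ± 5236. RBX in diabetic mice gave 0.090 (SE 0.091, limma adjusted p = 0.804), and the interaction was -0.49 (SE 0.13, limma adjusted p = 0.0198), which was lost without diabetic mouse 3 (-0.46, limma adjusted p = 0.0513). Quantile normalization gave 0.34 (SE 0.073, limma adjusted p = 0.00221) for RBX in non-diabetic mice and -0.28 (limma adjusted p = 0.0825) for the interaction, which also missed the threshold without a filter (limma adjusted p = 0.0625) and over all probe sets (limma adjusted p = 0.0621). For diabetes the log2 difference was 0.22 without RBX and -0.28 with it (limma adjusted p = 0.259 and 0.0744).

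The other 5 Timp2 probe sets lay on both sides of 0. For RBX in non-diabetic mice, 1433662_s_at gave 0.33 (SE 0.11), 1454677_at 0.074 (SE 0.10) and the dim 1437081_at 0.48 (SE 0.88), while 1450040_at gave -0.31 (SE 0.18) and 1420924_at -0.68 (SE 0.25). With adjustment over all 45037 non-control probe sets only 1460287_at passed of the 6. The probe set 1420924_at read 7518, 3980.0, 6931 and 2259 in non-diabetic RBX mice, beside 6634 to 8893 in non-diabetic mice, and its low values were those of mice 2 and 4. Those 2 mice also had the highest Actb 3' to 5' ratios, 2.29 and 2.51, which was looked up after these values were seen. The part of this ratio in the probe set's values was not tested. The mean over the Timp2 probe sets above the filter gave 0.00 for RBX in non-diabetic mice (limma adjusted p = 0.9999) and -0.018 for the interaction. Which transcript or region each probe set reads was not examined here, so the rise is given for that 1 probe set.

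Timp3, the inhibitor that stays bound to the matrix and also blocks ADAM proteases, was lowest in the non-diabetic RBX mice. It measured 31647, 33449.8, 33202 and 32501.5 in non-diabetic mice, a tight group, and 27154, 28841, 24849 and 14382 with RBX. The diabetic group gave 29095, 30000.6, 25573 and 28851, and the diabetic RBX group 27929, 29836, 27778 and 26303. Each of the 12 mice with diabetes, RBX or both lay below all 4 non-diabetic mice. Of all genes, 27.5% had groups that did not overlap for RBX in non-diabetic mice and 9.45% for diabetes without RBX. The share of all genes that set the non-diabetic group apart from the other groups at once was not counted. Timp3 fell with RBX in non-diabetic mice by 0.51 on the log2 scale (SE 0.15, limma adjusted p = 0.0162), from 32700.0 ± 809 to 23806 ± 6493. Without non-diabetic RBX mouse 4 the fall was smaller and passed still (-0.28, SE 0.083, limma adjusted p = 0.0187). The call was lost with the non-diabetic groups fitted alone (-0.51, SE 0.19, limma adjusted p = 0.0669). Diabetes without RBX gave -0.21 (SE 0.15, limma adjusted p = 0.558) and RBX in diabetic mice -0.020 (95% interval -0.34 to 0.30). The interaction, 0.49 (SE 0.21), did not pass (limma adjusted p = 0.142). The other 3 Timp3 probe sets were also lower with RBX in non-diabetic mice, by log2 values of -0.49, -0.75 and -0.46, and the 4 correlated with r from 0.71 to 0.97 over the 16 arrays.

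Smooth muscle markers were lower in the same comparison as Timp3. Of 12 tested, 8 fell with RBX in non-diabetic mice and 2 rose, with a median log2 fold change of -0.99. Myh11, the smooth muscle myosin heavy chain, gave -1.07 and Cnn1, calponin, -1.44, while Acta2, smooth muscle actin, rose by 0.30. Without RBX the summed signal of these 12 genes was 605531 to 645903 in the non-diabetic and 509757 to 607815 in the diabetic group. With RBX it was 456055 to 641023 and 626594 to 701081. Fat markers were higher: the summed signal of 7 white adipocyte genes was 117002 to 212369 in non-diabetic and 224134 to 466775 in non-diabetic RBX mice. The part of these cell types in the member values was not tested.

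Across the 10 genes, 3 had groups that did not overlap for RBX in non-diabetic mice, Mmp9 and Timp2 higher and Timp3 lower, beside 27.5% of all genes. By probe set, 8 of 23 passed. Of these, 4 were higher, of which 2 read Mmp2, 1 Mmp12 and 1 Timp2. The 4 lower ones read Timp3 (2), Timp1 (1) and Mmp13 (1). Over all 45037 non-control probe sets 12.5% passed, but that share includes the dim ones, while 21 of the 23 lay above the filter. Of all genes tested, each read above the filter, 31.6% passed. For genes read by more than 1 probe set, the probe sets of Mmp2, Mmp9, Mmp14, Mmp19 and Timp3 each agreed in sign in this comparison and those of Timp2 did not.

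**Figure D3:**
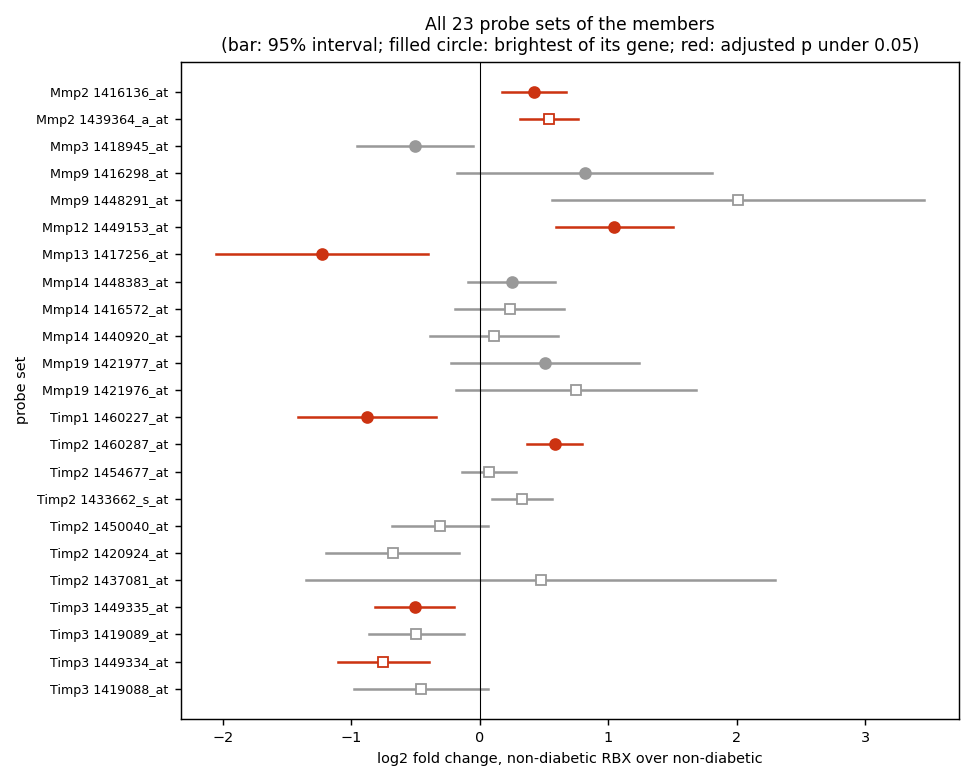
Log2 fold change for RBX in non-diabetic mice of each of the 23 probe sets, with 95% intervals. Filled circles are the brightest probe set of a gene, squares the others, and red an adjusted p under 0.05 over all 45037 non-control probe sets. The 6 Timp2 probe sets lie on both sides of 0, from -0.68 to 0.58, and the 4 Timp3 probe sets all lie below 0.

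All comparisons were also fitted with a technical measure of each array as a covariate. For RBX in non-diabetic mice, 0 of the 10 genes passed with the cre control as covariate, and 0 of all 11042. With the Actb 3' to 5' ratio, 0 of the 10 and 174 of all genes passed. The interaction of Mmp12 was -0.49 with cre and -1.26 with the Actb ratio (limma adjusted p = 0.667 and 0.109), and that of Timp2 -0.22 and -0.45 (limma adjusted p = 0.589 and 0.131). Both measures were higher on every non-diabetic RBX array than on any non-diabetic array. These fits therefore cannot separate either measure from RBX in non-diabetic mice, and the values below are extrapolations. For RBX in non-diabetic mice the standard error of Mmp12 was 0.23 without a covariate, 0.41 with cre and 0.46 with the Actb ratio. In that comparison the value of Mmp12 was 0.097 with cre and 1.03 with the Actb ratio. Timp3 was 0.089 and -0.13, which is a change of sign with cre, and Timp1 -0.69 and -0.0095. Mmp2 was 0.54 and 0.63, Mmp13 -0.84 and -0.97, and Timp2 0.25 and 0.52. The part of these array measures in the differences was not tested beyond these fits.

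**Figure D4:**
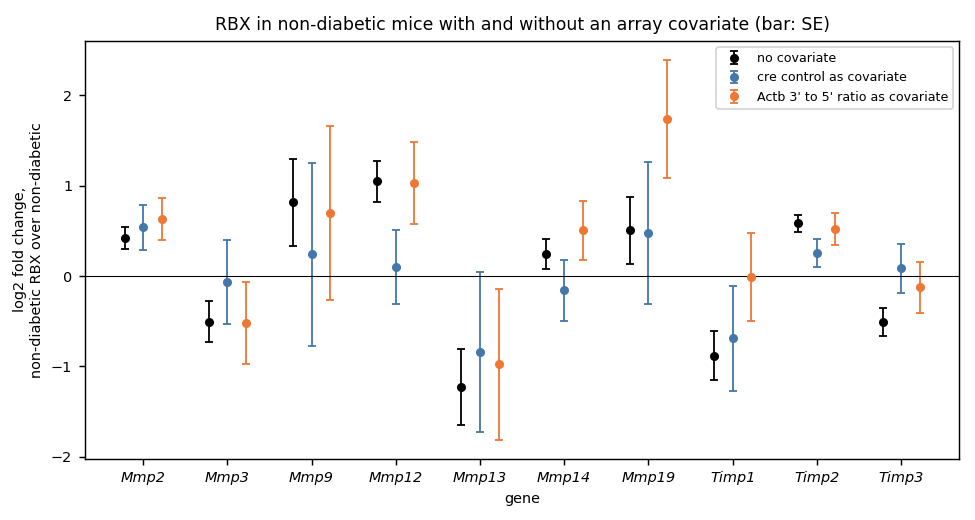
Log2 fold change of the 10 genes for RBX in non-diabetic mice without a covariate (black), with the log2 cre control signal (blue) and with the log2 Actb 3' to 5' ratio (orange) of each array as a covariate, with bars of 1 SE from limma. Mmp12 moves from 1.05 to 0.097 with cre, Timp1 from -0.88 to -0.0095 with the Actb ratio, and Mmp2 stays between 0.42 and 0.63.

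Other genes of the protease network were read against the 31.6% of all genes that passed for RBX in non-diabetic mice. In that comparison 3 of 7 other MMPs and inhibitors passed, 5 of 18 ADAM and ADAMTS proteases, 3 of 11 genes of activation and clearance and 7 of 16 substrates. Of 7 tested among the other MMPs and inhibitors, 1 rose and 2 fell with RBX in non-diabetic mice. Mmp23, a small protease anchored in the membrane, rose from 8017 ± 99.7 to 15059 ± 449 (0.91, SE 0.084, limma adjusted p = 2.55e-06). Mmp17, a membrane-type protease held by a lipid anchor, gave -1.07, and Reck, a membrane-anchored inhibitor of Mmp2, Mmp9 and Mmp14, gave -0.56 (limma adjusted p = 0.000453 and 0.00759). Mmp23 was lower with diabetes under RBX (-0.37, limma adjusted p = 0.0118) and its interaction was -0.59 (limma adjusted p = 0.00426). The 9 others of that list, among them Mmp7 and Mmp10, were below the filter or had no probe set with 1 symbol.

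Among the 18 ADAM and ADAMTS proteases tested, relatives that shed surface proteins or cut proteoglycans, 4 fell and 1 rose with RBX in non-diabetic mice. Adamts1, a versicanase and aggrecanase that Timp3 inhibits, fell from 13358 ± 2045 to 5634 ± 1005 (log2 -1.25, SE 0.14, limma adjusted p = 8.68e-06). The others that fell were Adamts8, Adamts9 and Adam9 (-0.99, -0.77 and -0.38), and Adamts12 rose by 0.65. Adamts1 was higher with diabetes under RBX (0.79, limma adjusted p = 0.00259), as was Adam9 (0.32, limma adjusted p = 0.0463), and Adamts1 and Adam33 passed for the interaction (1.13 and 0.89). Of 11 genes of activation and clearance, 3 rose with RBX in non-diabetic mice and 0 fell. They were Plaur, the urokinase receptor (0.87), Pcsk6, a proprotein convertase (0.82), and Lrp1, the endocytic receptor that clears protease and inhibitor complexes (0.34). Among 16 substrates of the wall, 4 rose and 3 fell. Versican (Vcan), the large proteoglycan of the plaque matrix, fell most, from 10144 ± 1915 to 3581 ± 1058 (log2 -1.53, limma adjusted p = 1.21e-05), and Col4a2 and Lamc1 of the basement membrane gave -0.62 and -0.27. Lamb1, Dcn and Col1a2 rose by 0.80, 0.50 and 0.37. Lamb1, a laminin chain, was the only gene of the 4 lists to pass for diabetes without RBX (0.58, SE 0.13, limma adjusted p = 0.0444), and 0 genes of the 4 lists passed for RBX in diabetic mice (limma, with 2 of 7, 2 of 18, 1 of 11 and 2 of 16 at an unadjusted p under 0.05).

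Some of the 10 genes varied together from mouse to mouse within groups. The strongest pairs over the 16 arrays, after subtracting group means, were Mmp2 with Timp1 (r = 0.77), Mmp19 with Timp1 (r = 0.75), Mmp12 with Mmp19 (r = 0.69), Mmp3 with Timp3 (r = 0.66) and Mmp12 with Mmp14 (r = 0.65). Non-diabetic RBX mouse 4 was the lowest of the 16 for both Mmp3 (13351) and Timp3 (14382). No correlation in this paragraph was recomputed without that array. Mmp12 and Timp2 had r = 0.65 within groups and 0.81 with the group means left in. Timp1 and Timp2, by contrast, had r = 0.10 within groups and -0.52 with group means left in. Timp2 stands in this paragraph for its brightest probe set alone. The r of that probe set with the other Timp2 probe sets ran only from -0.20 to 0.33 within groups. The pattern most like that of Mmp12 within groups was that of Lpxn, a focal adhesion adaptor of leukocytes (r = 0.93), followed by Akr1a1 and Atp6v0e (both 0.92). Mmp2 was most like Emilin2, an elastin-associated glycoprotein (r = 0.91), Mmp14 like Jak3 (r = 0.95), Mmp19 like Pdpn (r = 0.86) and Timp2 like Arpc5 (r = 0.89). Timp3 was most like Unc119b (r = 0.95) and Wls (r = 0.94), Timp1 like Got2 (r = 0.93), Mmp3 like Ccbe1 and Antxr1 (both 0.89), Mmp9 like Engase (r = 0.93) and Mmp13 like Shc2 (r = 0.84). These are the highest correlations of each gene among all genes tested, over 16 arrays that share scaling and RNA quality, and they are given as a description.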

How the data were processed

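Whole-aorta RNA was measured on 16 arrays, each taken as 1 mouse, in 4 groups of 4 from the sample titles. Trizol was used to extract the RNA, and 2 ug of it went into biotinylated cRNA, per the labels' protocols. The deposited values were linear-scale intensity, made with MAS5 per the submitters' processing notes, whose settings are not given in the sources used here. Without the highest and lowest 2% of its values, each array averaged 1500.01: the deposited intensities had been scaled to a common trimmed mean. Detection calls were not used here.

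The log2 of each value was used, without an offset. Symbols came from GEO's platform annotation: 34958 of 45101 probe sets had 1 symbol, 932 several and 9211 none, and 64 were controls. Looked up in RefSeq (GRCm38.p6), 99.4% were found and 0 changed. Probe sets above the median mean signal of the non-control probe sets (381.5 on the linear scale) were kept, and the brightest per gene was tested: 11042 of 18194 genes. The 45037 non-control probe sets were also fitted apart.

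limma 3.58.1 in R 4.3.3 (data.table at version 1.17.8) fitted 4 group means on all 16 arrays (12 residual and 6.2 prior degrees of freedom, intensity trend). Two-sided p-values were adjusted by Benjamini-Hochberg within each comparison, with 0.05 as the threshold. The script was tested on simulated data. The titles number the arrays of each group as biological replicates, which were taken as separate mice, and 4 per group limits the precision. Replicate numbers were not used to pair the mice in the main fit, and the titles do not say whether they do. After subtracting group means, same-numbered mice had r from -0.14 to 0.18, and 2 of 24 pairs exceeded 0.1. These correlations cannot tell how the mice were handled. Every member was named; from each pathway list up to 6 genes past the threshold in any comparison were named by smallest adjusted p, and the cell type markers named are examples chosen after their values were seen. The members, lists and comparisons were chosen with earlier results of these data known.

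Alternatives changed the normalization (quantile, or centring at the 75th percentile), the filter (none, or the 70th percentile), the offset (30.5), the probe sets (their mean) and the variance model (untrended, robust, or array weights). Others added a replicate block, the cre control or the Actb ratio, fitted the 2 compared groups alone, or left out each array in turn. A fit without the non-diabetic RBX arrays was added after seeing the data. Promoter windows and their sequences came from RefSeq (GRCm38.p6).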

Additional observations from a re-analysis of the deposited data

Results flagged for a closer look

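A sample far from the other 3 of its group was found in 3 of the 40 groups of 4 checked, where chance alone gives about 1 in 20. Mmp2 was 9702 in non-diabetic mouse 4, beside a median of 11835 in the other 3 mice. Mmp3 was 19863 in the same mouse, beside 33872. Mmp19 was 5461 in diabetic mouse 4, beside 2479.

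The effect of RBX differed between diabetic and non-diabetic mice, by the interaction test of limma, for Mmp12 (-1.27, SE 0.32) and for the brightest Timp2 probe set (-0.49, SE 0.13). For Timp2 it did not pass without a filter on dim signals (limma adjusted p = 0.0625), with quantile normalization (-0.28, limma adjusted p = 0.0825) or over all probe sets fitted apart (limma adjusted p = 0.0621), and with either array covariate neither gene passed. The cre control of the non-diabetic RBX arrays lay above that of all other arrays, so the fit with cre cannot separate cre from this group.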

How the results depend on the processing

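Over 705 values recomputed under the other settings, 644 kept their direction and side of the threshold, 26 lost it, 12 gained it, 22 uncalled values changed sign and 1 called value reversed: Timp3 for RBX in non-diabetic mice was 0.089 with the cre control as covariate. With either array covariate, 0 of the 10 genes and 0 of the 23 probe sets passed for diabetes with RBX, the interaction or RBX in non-diabetic mice. Over all genes, the cre fit called 48, 0 and 0 in that order, and the Actb fit 289, 341 and 174. Over all probe sets, the cre fit called 135, 4 and 0, and the Actb fit 517, 413 and 73. Every non-diabetic RBX array had a higher cre signal than all other arrays, so the cre fit cannot separate cre from that group. With the Actb ratio the standard error of the Mmp12 interaction rose from 0.32 to 0.42. For diabetes without RBX, the main fit called 72 of all genes and 66 of all probe sets. Array weights called 5 of the 10 genes and 3 of the 23 probe sets, beside 1207 genes and 688 probe sets over all. The fit of the 2 groups alone called 1 of the 10, beside 209 of all genes. The fit without the non-diabetic RBX arrays, chosen after seeing the data, called 2 genes and 2 probe sets, beside 387 and 383 over all. For the interaction, quantile normalization, no filter and the mean of probe sets each called 1 gene (Mmp12), beside 1236, 1001 and 1075 of all genes. Array weights called 2 probe sets and no intensity trend 0, beside 2030 and 384 over all probe sets. For diabetes with RBX, no intensity trend called 0 genes and 0 probe sets, beside 619 and 244 over all. Quantile normalization, a robust variance and array weights each called 0 probe sets, beside 1352, 1297 and 942 over all probe sets. For RBX in non-diabetic mice, no intensity trend and the 2 groups alone each called 4 probe sets, beside 3715 and 3906 over all probe sets. Why these counts moved was not tested.

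The replicate block called 1 gene (Mmp2) for diabetes without RBX and 7 genes for RBX in non-diabetic mice, with Mmp3 added (-0.50, limma adjusted p = 0.0184), and changed no other gene's call; 3 of the 16 arrays correlated best with their own number, so the block has no basis in the design. Leaving out each array in turn called 0 to 2 genes for diabetes without RBX, 0 for RBX in diabetic mice, 4 to 6 for RBX in non-diabetic mice, 0 to 1 for diabetes with RBX and 1 to 3 for the interaction, and in probe sets 0 to 1, 0, 5 to 8, 0 to 2 and 0 to 2. Over all genes, those fits called 1 to 334, 1 to 15, 2661 to 3534, 400 to 916 and 771 to 1529 in the same order. Over all non-control probe sets they called 4 to 256, 2 to 23, 3878 to 5701, 645 to 1661 and 926 to 2029. Of Mmp9 and Timp2, 1 probe set each lay below the filter, and these are the least precise.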
